A study of Mus musculus with 16 samples.

Results

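The 10 genes described here are commonly used as T lymphocyte genes: Cd3d, Cd3e, Cd3g, Cd4, Cd8a, Lck, Il7r, Il2rg, Cd28 and Ptprc. They were found by symbol among the 49568 gene rows of a count table of mouse flexor tendon, and each of the 10 had 1 row. RNA-seq had been performed on 16 libraries, with 4 in each of 4 groups of male mice aged 9 to 11 weeks and bred in-house: uninjured C57BL/6J (C57) tendon, C57 tendon 7 days after injury, uninjured MRL/MpJ (MRL) tendon and MRL tendon 7 days after injury. C57 is a standard inbred laboratory strain, and MRL is an inbred strain known for healing several tissues with little scarring. The injury was a partial cut through the deep digital flexor tendon of the third hind-paw digit, and each library came from a single tendon whose surrounding sheath and peritendinous tissue had not been removed, so that each library holds RNA of the tendon and of the tissue around it. Surgery was done under ketamine and xylazine and was followed by buprenorphine for pain, and where uninjured mice did not receive these drugs, their effect and that of the injury cannot be told apart. No transgene is named for either strain, and T cells were not sorted for these libraries.

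T lymphocytes recognize antigen through a receptor whose variable chains are carried to the surface by the invariant CD3 chains. The coreceptors CD4 and CD8 bring the kinase LCK to the receptor, and CD28 supplies the costimulatory signal. Survival of resting T cells depends on interleukin 7, which is read by the IL-7 receptor chain paired with the common gamma chain (Il2rg), and every nucleated blood cell carries the phosphatase CD45 (Ptprc). The CD3 chains are the defining T cell genes of the list, whereas Ptprc is shared by all leukocytes, Il2rg by lymphoid and many myeloid cells, Il7r by innate lymphoid cells and some myeloid cells, and in mice Cd4 can also be expressed by dendritic cells.

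The list divided into genes that were counted in most libraries and genes that were hardly counted. Ptprc, Il2rg and Il7r were higher in the injured than in the uninjured tendons of the MRL mice, by 5.37-fold, 38.4-fold and at least 36.3-fold on mean counts scaled to a common library size (CPM), and Ptprc was 3.36-fold higher in the injured C57 tendons. In C57 the mean of Il2rg was 8.03-fold and that of Il7r 4.02-fold higher after injury, with each injured library above each uninjured one, but neither passed edgeR's test over all 8 libraries. The share of all genes whose groups separate in this way was not counted, here or in the comparisons below. Without adjustment, 2204 of 14424 genes tested in C57 and 4046 of 14274 in MRL had a p-value under 0.05 (edgeR). The C57 calls of Ptprc and Il2rg depended on which libraries were kept, as given with each gene. The 3 CD3 genes, Cd4, Cd8a and Lck were at or under 3 counts, the floor used here, in most libraries. The exceptions were Lck in injured MRL, where 3 of 4 libraries were over it, and Cd3g in injured MRL and Cd3e and Cd4 in injured C57, where 2 of 4 were. The defining markers therefore go against reading the list as a whole as a measure of T cells, and the genes are described one by one below. In bulk tissue, fewer cells of a type and less RNA per cell cannot be told apart.

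Libraries held between 12552424 and 23741648 counts, and the injured MRL libraries, at 18524170 to 23741648, were the deepest group. A count of 3 corresponded to between 0.128 and 0.237 CPM. A floor of this kind covers counting error only, and the methods describe pre-amplification of the RNA whereas the deposited labels name another kit. In the library labelled C57 uninjured replicate 4, a set of 12 epidermal markers took 8.58% of the counts, against 0.0845% or less elsewhere, and 6.75% fell on 12 skeletal muscle genes in C57 injured replicate 1, with 0.209% in C57 injured replicate 2. The 10 tendon markers examined took between 1.91% and 7.48% of the counts. Over 23000 genes, the Spearman correlation of the library labelled MRL uninjured replicate 4 with the other uninjured MRL libraries was between 0.909 and 0.917, whereas with uninjured C57 libraries it reached 0.937. Injured libraries carry no replicate number in their labels, so their numbers here only name them, in accession order.

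Promoter sequences are shown for the 3 genes that rose and for Cd3d as a T cell-specific comparison. RefSeq held the promoter of 8 of the 10 genes in GRCm38.p6, each from 250 bases before to 50 bases after the start, and Cd4 and Cd28 were not among them. Capitals mark GAGGAA, the core bound by PU.1 and other Ets factors, and TGTGGT, the core bound by Runx factors, on either strand (TTCCTC and ACCACA when read from the other strand). The windows, 5′ to 3′ on the strand of the gene, are chr1:138175256-138175555 (minus strand) for Ptprc, chrX:101268206-101268505 (minus strand) for Il2rg, chr15:9529827-9530126 (minus strand) for Il7r and chr9:44981536-44981835 (plus strand) for Cd3d.
Ptprc: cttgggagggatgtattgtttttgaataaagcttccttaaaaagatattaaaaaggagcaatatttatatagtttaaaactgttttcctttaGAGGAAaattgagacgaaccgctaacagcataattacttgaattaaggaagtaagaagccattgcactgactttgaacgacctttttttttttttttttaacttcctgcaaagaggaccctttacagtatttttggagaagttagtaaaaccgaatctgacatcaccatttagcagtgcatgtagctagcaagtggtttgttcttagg
Il2rg: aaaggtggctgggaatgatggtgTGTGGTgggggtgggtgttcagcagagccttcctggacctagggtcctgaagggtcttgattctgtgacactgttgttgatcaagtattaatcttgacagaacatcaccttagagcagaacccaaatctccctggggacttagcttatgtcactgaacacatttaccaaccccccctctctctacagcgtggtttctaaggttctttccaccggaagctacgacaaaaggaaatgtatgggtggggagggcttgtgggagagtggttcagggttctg
Il7r: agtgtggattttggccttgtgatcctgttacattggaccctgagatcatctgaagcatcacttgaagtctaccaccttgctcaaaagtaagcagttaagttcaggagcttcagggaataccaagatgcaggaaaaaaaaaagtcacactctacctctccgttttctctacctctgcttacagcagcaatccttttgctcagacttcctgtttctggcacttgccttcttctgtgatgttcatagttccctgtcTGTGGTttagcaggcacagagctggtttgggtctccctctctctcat
Cd3d: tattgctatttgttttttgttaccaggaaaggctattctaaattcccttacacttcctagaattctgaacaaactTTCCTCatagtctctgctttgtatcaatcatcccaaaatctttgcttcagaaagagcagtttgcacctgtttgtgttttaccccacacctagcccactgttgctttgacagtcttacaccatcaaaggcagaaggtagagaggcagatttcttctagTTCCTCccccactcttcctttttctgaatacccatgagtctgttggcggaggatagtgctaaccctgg
GAGGAA occurred once in the Ptprc window and at 2 places in the Cd3d window, and it was present in 28.3% of the 27025 RefSeq promoters of the same length. TGTGGT occurred at 1 place each in the Il2rg and Il7r windows and in 16.9% of all promoters. The E-box CANNTG, which reads the same on both strands and is not in capitals, was found in 72.1% of all promoters, at 3 places in Il7r, 1 in Ptprc and 1 in Cd3d, and not in Il2rg. These are matches of letters, and no binding was measured.

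Ptprc, on chromosome 1 from 138062861 to 138175708 in the GENCODE M21 annotation of GRCm38, encodes CD45, the receptor phosphatase that activates LCK in T cells and is present on all leukocytes. It was counted in all 16 libraries. In C57 tendon it stood at 14.1, 18.3, 16.9 and 13.1 CPM in the uninjured and at 40.1, 59.1, 72.6 and 37.7 CPM in the injured libraries. In MRL tendon it stood at 5.38, 6.68, 10.1 and 13.3 CPM without injury and at 51.2, 29.7, 33.7 and 75.7 CPM after injury. In both strains each injured library was above each uninjured library. The means were 15.6 ± 2.39 and 52.4 ± 16.6 CPM in C57 and 8.86 ± 3.55 and 47.6 ± 20.9 CPM in MRL (SD, n = 4). The log2 fold change after injury was 1.69 ± 0.26 (SE) in C57, with an adjusted p-value of 0.0243, and 2.42 ± 0.39 in MRL, with an adjusted p-value of 0.00466 (edgeR's quasi-likelihood test, Benjamini-Hochberg). When 1 library was omitted at a time, 6 of 8 fits no longer called Ptprc in C57, with adjusted p-values up to 0.102, and the call was kept without C57 uninjured replicate 4 and without C57 injured replicate 1.

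Il2rg, on chromosome X from 101264378 to 101268255, encodes the common gamma chain that receptors for interleukins 2, 4, 7, 9, 15 and 21 share. Its counts were 18, 28, 41 and 0 in the uninjured and 138, 284, 213 and 135 in the injured C57 libraries. In MRL they were 10, 4, 4 and 10 without injury and 419, 273, 315 and 571 after injury. The injured libraries were again above all uninjured ones in each strain, and the single 0 was in the library labelled C57 uninjured replicate 4, the one rich in epidermal genes. Mean expression was 1.54 ± 1.31 and 12.3 ± 4.15 CPM in uninjured and injured C57 and 0.493 ± 0.272 and 18.9 ± 8.53 CPM in uninjured and injured MRL (SD, n = 4). The log2 fold change was 5.25 ± 0.54 in MRL (adjusted p = 0.00104, edgeR). In C57 it was 2.95 ± 0.98 with an adjusted p-value of 0.209 (edgeR), so that the difference did not pass the test over all 8 libraries. Without C57 uninjured replicate 4, the C57 log2 fold change was 2.54 with an adjusted p-value of 0.0170 (edgeR), and with DESeq2 on all 8 libraries the adjusted p-value was 0.0103. Il2rg was called in C57 in this 1 of 8 fits without 1 library, with adjusted p-values up to 0.423 in the others (edgeR). Using DESeq2 size factors, total counts or no filter on low counts, edgeR did not call it.

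Il7r, on chromosome 15 from 9505788 to 9530176, encodes the alpha chain of the IL-7 receptor. Without injury it was listed at 0, 20, 0 and 20 counts in C57 and at 0 in each of the 4 MRL libraries. After injury it had 51, 51, 29 and 32 counts in C57 and 86 counts or more in each MRL library. The injured libraries were higher than all uninjured ones in both strains, and the injured MRL libraries were higher than all injured C57 libraries. On the scale of CPM, which takes the greater depth of injured MRL into account, the injured values were 3.12, 3.15, 1.87 and 2.28 in C57 and 5.61, 5.53, 3.87 and 15.0 in MRL. Against the floor of 3 counts per library, the injured MRL mean of 7.50 ± 5.05 CPM was at least 36.3-fold higher than that of uninjured MRL (adjusted p = 0.00340, edgeR). In C57 the means were 0.648 ± 0.748 and 2.61 ± 0.637 CPM, a log2 fold change of 1.94 ± 1.27 that did not pass the test (adjusted p = 0.505, edgeR).

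Cd28, on chromosome 1 from 60716800 to 60773359, encodes the costimulatory receptor for CD80 and CD86. Its counts were 0, 43, 24 and 0 in uninjured C57, 65, 61, 17 and 22 in injured C57, 56, 23, 45 and 0 in uninjured MRL and 6, 16, 80 and 18 in injured MRL. The groups overlapped throughout, and libraries with 0 counts and with over 40 counts stood in the same group. The log2 fold change after injury was 1.14 ± 1.39 in C57 (adjusted p = 0.754, edgeR) and -0.54 ± 1.16 in MRL (adjusted p = 0.799, edgeR). Single libraries moved both values, which lay between 0.72 without C57 uninjured replicate 1 and 2.04 without C57 uninjured replicate 2, and between -1.60 without MRL injured replicate 3 and -0.07 without MRL uninjured replicate 1, with no fit passing.

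**Figure D1:**
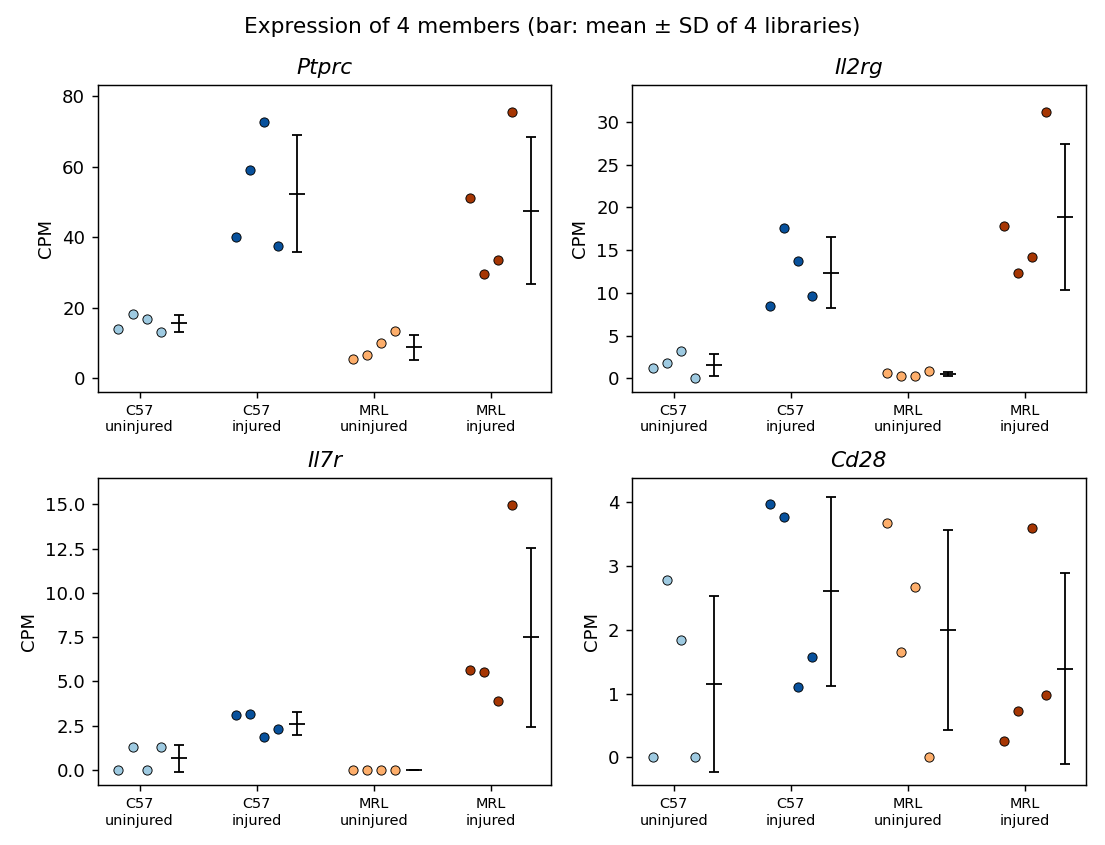
Expression in CPM on TMM-adjusted library sizes of Ptprc, Il2rg, Il7r and Cd28 (vertical axes) in the 4 groups, with 1 point per library and bars for the mean ± SD of 4 libraries. Injured libraries stand above all uninjured libraries for Ptprc, Il2rg and Il7r in both strains, Il7r is at 0 in all uninjured MRL libraries, and the groups overlap for Cd28. The share of all genes whose groups separate in this way was not counted.

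The 3 CD3 genes lie side by side on chromosome 9, Cd3g from 44969572 to 44980431, Cd3d from 44981786 to 44987339 and Cd3e from 44998740 to 45009627. Cd3d, the delta chain, had 11 counts in C57 injured replicate 4 and at most 1 count in each of the other 15 libraries. Cd3e, the epsilon chain, had 78 counts in C57 injured replicate 1 and 12 in C57 injured replicate 2, and at most 2 counts in each of the other libraries. Those 2 libraries were the ones with skeletal muscle genes, and the part of that tissue in the Cd3e counts was not tested. Cd3g, the gamma chain, had 1, 1, 12 and 13 counts in injured MRL, 0, 0, 4 and 3 in uninjured MRL, 0, 0, 1 and 3 in injured C57 and 0 in each uninjured C57 library. The library highest for each chain was thus a different one. The sum of the 3 chains was 0 in all 4 uninjured C57 libraries, 78, 12, 1 and 14 counts in injured C57, 2, 1, 4 and 3 counts in uninjured MRL and 1, 2, 13 and 15 counts in injured MRL. In the same libraries Ptprc had between 82 and 1384 counts.

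Cd4, on chromosome 6 from 124864692 to 124888221, encodes the coreceptor of helper T cells. It had 0, 3, 18 and 31 counts in injured C57, and 22 counts in MRL uninjured replicate 3. The other libraries had at most 3 counts, and the 4 injured MRL libraries had 1, 2, 0 and 0. Cd8a, on chromosome 6 from 71373427 to 71379173, encodes the alpha chain of the coreceptor of cytotoxic T cells. It was over the floor in 1 of 16 libraries, MRL injured replicate 3 with 6 counts. Lck, on chromosome 4 from 129548344 to 129573641, encodes the kinase that first phosphorylates the CD3 chains. It had 1, 9, 11 and 13 counts in injured MRL and 0, 0, 0 and 9 in uninjured MRL, so that the groups overlapped, with 0, 0, 0 and 2 in injured and 0, 0, 0 and 5 in uninjured C57. Lck was thus over the floor in 3 of 4 injured MRL libraries and in 2 of the other 12 libraries, both labelled uninjured replicate 4, at a mean of 0.414 ± 0.279 CPM in injured MRL (SD, n = 4).

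**Figure D2:**
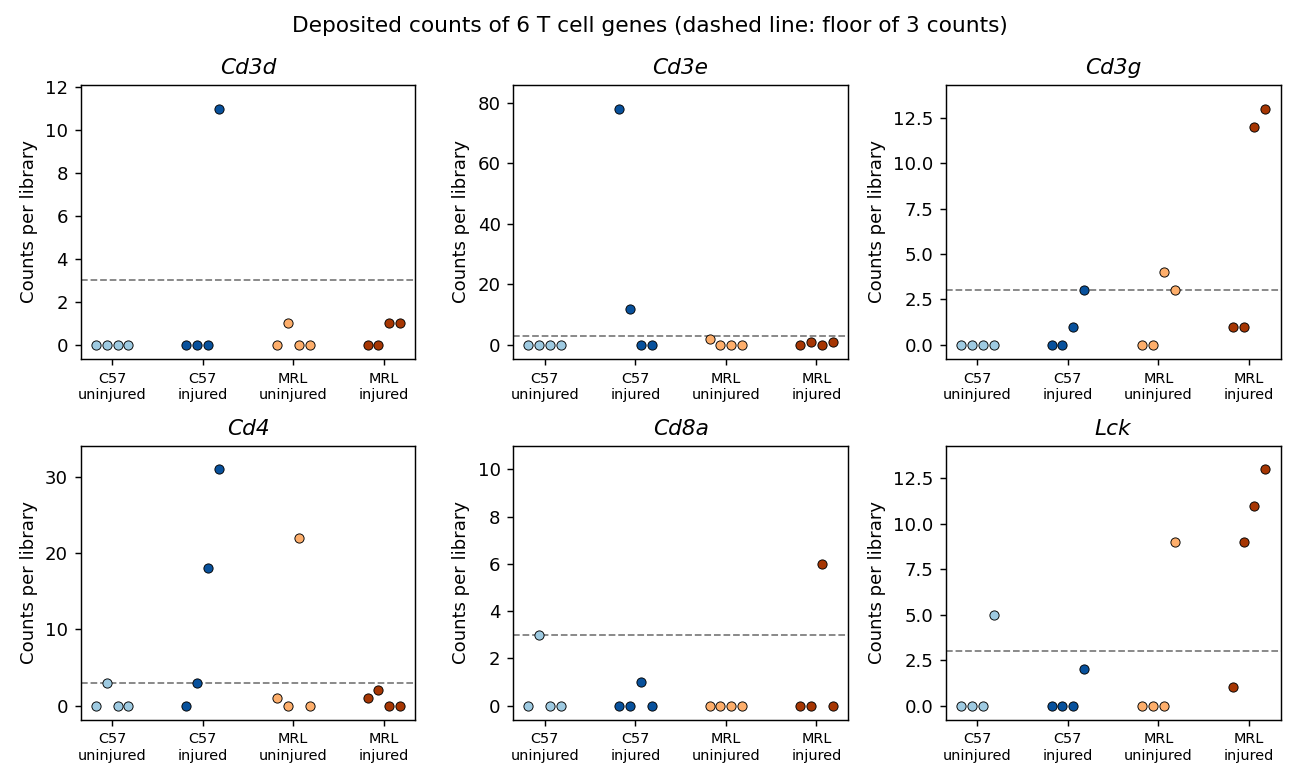
Deposited counts per library (vertical axes, each panel with its own scale) of Cd3d, Cd3e, Cd3g, Cd4, Cd8a and Lck in the 4 groups, with 1 point per library and a dashed line at the floor of 3 counts. Most points lie at or under the line, and the points above it belong to 1 to 5 of the 16 libraries for each gene.

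These 6 genes were left out by edgeR's filter on low counts and have no test of their own. Fitted without the filter, none of them passed in any of the 5 comparisons, and the smallest adjusted p-value was 0.176, for Cd3e between the injured groups (edgeR). DESeq2 called Cd3e lower in injured MRL than in injured C57 with an adjusted p-value of 0.0468, a call that rests on the 78 and 12 counts of the libraries with muscle genes. Over all 16 libraries, the number over the floor was 16 for Ptprc, 15 for Il2rg, 13 for Cd28, 10 for Il7r, 5 for Lck, 3 each for Cd3g and Cd4, 2 for Cd3e and 1 each for Cd3d and Cd8a.

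Levels of different genes were compared per length, as CPM per kilobase of the union of annotated exons. This union was 18.3 kb for Ptprc and 2.39 kb for Il2rg, and their order depends on it. Without the length, Ptprc was above Il2rg, at 52.4 and 12.3 CPM in injured C57 and at 47.6 and 18.9 CPM in injured MRL. In injured MRL tendon the order was Il2rg at 7.92 ± 3.57, Ptprc at 2.60 ± 1.14 and Il7r at 1.61 ± 1.08, followed by Cd28 at 0.227 ± 0.246, Lck at 0.141 ± 0.0951 and Cd3g at 0.102 ± 0.105 (SD, n = 4). In injured C57 tendon the order was Il2rg at 5.17 ± 1.74, Ptprc at 2.86 ± 0.904, Il7r at 0.559 ± 0.137, Cd28 at 0.425 ± 0.242, Cd3e at 0.338 ± 0.562 and Cd4 at 0.220 ± 0.252. In MRL the neighbours Ptprc and Il7r, and the neighbours from Cd28 downwards, differed by less than the larger of their SD, and in C57 those from Il7r downwards. In uninjured tendon of both strains Ptprc had the highest level of the list, 0.852 ± 0.131 in C57 and 0.484 ± 0.194 in MRL. There it was followed by Il2rg at 0.644 ± 0.547 in C57 and by Cd28 at 0.327 ± 0.256 in MRL, in each case within the SD of that gene.

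Of the 10 genes, 4 were tested within each strain, and 6 had too few counts. In C57 tendon 1 of the 4, Ptprc, passed both criteria (adjusted p-value under 0.05 and absolute log2 fold change over 1) as higher after injury, where 0.908% of the 14424 genes tested did. In MRL tendon 3 of the 4, Ptprc, Il2rg and Il7r, passed as higher, where 5.25% of 14274 genes tested did. The median log2 fold change of the 4 genes was 1.82 in C57 and 3.84 in MRL, beside -0.048 and -0.034 over all genes tested. With all 10 genes in view, 9 did not pass in C57 and 7 did not pass in MRL. Il7r, at 0 in each uninjured MRL library, and Il2rg, at 4 to 10 counts there, passed the filter through their injured libraries and so had to differ, and the counts and medians of the 4 tested genes are a description only. When 1 MRL library was omitted at a time, Ptprc, which was counted in all libraries, was called in all 8 fits, with adjusted p-values up to 0.0201 (edgeR). The values of Il7r and Il2rg in these fits, up to 0.0110 and 0.00512, carry the same limit of the filter and are no added support. Without the library labelled MRL uninjured replicate 4 the 3 log2 fold changes were 10.15, 5.57 and 2.69 for Il7r, Il2rg and Ptprc, and the first of these depends on how zeros are handled.

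**Figure D3:**
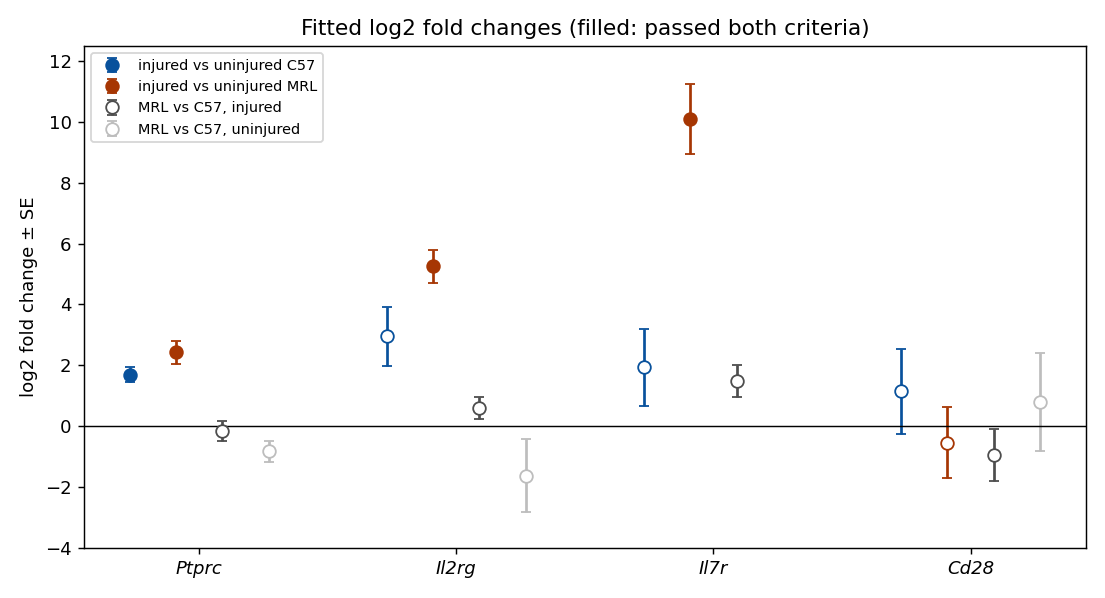
Fitted log2 fold change ± SE (vertical axis) of Ptprc, Il2rg, Il7r and Cd28 after injury in C57 and in MRL, and between MRL and C57 in injured and in uninjured tendon, with filled points for changes that passed both criteria. The filled points are Ptprc in C57 and Ptprc, Il2rg and Il7r in MRL, all above 0, while no difference between the strains is filled. Il7r was not tested in uninjured tendon, and its MRL value of 10.1 depends on how zeros are handled.

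Between the strains, no member passed the test. In injured tendon the log2 difference of MRL from C57 was 1.49 ± 0.52 for Il7r (adjusted p = 0.140, edgeR), 0.59 ± 0.36 for Il2rg (adjusted p = 0.384), -0.94 ± 0.85 for Cd28 (adjusted p = 0.569) and -0.17 ± 0.33 for Ptprc (adjusted p = 0.813), where 3.43% of the 14626 genes tested passed. DESeq2 gave Il7r an adjusted p-value of 0.0356. The difference of Ptprc turned to the other sign, up to 0.052, in 3 of 8 fits with 1 library omitted. In uninjured tendon the differences were -1.63 ± 1.20 for Il2rg (adjusted p = 0.745), 0.79 ± 1.62 for Cd28 (adjusted p = 0.917) and -0.83 ± 0.34 for Ptprc (adjusted p = 0.621), where 0 of 14055 genes, 0%, passed in edgeR, 1106 had an unadjusted p-value under 0.05 and DESeq2 called 104. With both libraries labelled uninjured replicate 4 left out, 497 genes passed in edgeR and still 0 members, at -1.16 for Ptprc (adjusted p = 0.0676) and -2.36 for Il2rg (adjusted p = 0.1997). Il7r was not tested there, since MRL was at 0 and C57 at 20 counts in 2 of 4 libraries.

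Whether the injury difference itself differed between the strains was tested as an interaction over all 16 libraries. None of the 4 tested members passed, and neither did any other of the 15947 genes (0%), of which 1939 had an unadjusted p-value under 0.05, while DESeq2 called 198. The interaction was 7.98 ± 2.05 for Il7r (adjusted p = 0.333, edgeR), a value that depends on the zeros of uninjured MRL, 2.24 ± 1.09 for Il2rg (adjusted p = 0.426), 0.67 ± 0.47 for Ptprc (adjusted p = 0.608) and -1.72 ± 1.95 for Cd28 (adjusted p = 0.780). DESeq2 gave Il7r an adjusted p-value of 0.00907. A call in MRL and none in C57 is thus not by itself a difference between the strains in edgeR.

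The T cell receptor and the signalling chain behind it were looked at through 15 further genes. Of these, 3 passed the filter in C57 and 4 in MRL, and 0 passed edgeR's test in either strain, while DESeq2 called 3 in C57 and 1 in MRL. Over all genes tested, edgeR called 0.908% higher in C57 and 5.25% in MRL, and DESeq2 called 907 and 1818 genes. The most highly expressed of the 15 were Fyn, a Src-family kinase of many cell types, and Lcp2, the adaptor SLP-76 of T cells and myeloid cells. Lcp2 had log2 fold changes of 1.62 ± 0.37 in C57 (adjusted p = 0.0740, edgeR) and 2.04 ± 0.72 in MRL (adjusted p = 0.0962). Fyn had 1.09 ± 0.25 in C57 (adjusted p = 0.0773) and 0.19 ± 0.24 in MRL (adjusted p = 0.651). With both C57 libraries that stand apart left out, Lcp2 (1.98, adjusted p = 0.00507, edgeR) and Fyn (1.15, adjusted p = 0.0120) passed in C57, and DESeq2 called Lcp2 in both strains and Fyn in C57. Trbc2, a constant segment of the receptor beta chain, had 576 counts in the library labelled C57 uninjured replicate 4 and at most 6 in each of the others. That library also held 1249 counts of Gata3 and 1159 of Bcl11b, transcription factors of T cells that epidermal cells express as well, while its CD3 counts were 0.

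The following genes of the same list were chosen after their values were seen. Trac, the constant segment of the receptor alpha chain, had at most 20 counts in any library and 1, 3, 14 and 0 in injured MRL. Zap70, the kinase recruited to phosphorylated CD3, had 13 counts in C57 injured replicate 1 and 0 in each of the other libraries. Cd247, the zeta chain of the CD3 complex, averaged 1.02 CPM in injured C57, with up to 27 counts, and had at most 1 count in each uninjured C57 library. In MRL Cd247 averaged 0.271 CPM without injury, with up to 11 counts, and 0.116 CPM after injury, with up to 9. It was not called in either strain in edgeR. Trdc, the constant segment of the receptor delta chain, had 58, 104, 155 and 105 counts in injured MRL and 12, 6, 0 and 6 in injured C57, and the groups did not overlap. In uninjured tendon it had 23, 33, 76 and 0 counts in MRL and 5, 16, 4 and 56 in C57, a log2 difference of 0.61 that was 2.30 with both libraries labelled uninjured replicate 4 left out (adjusted p = 0.918 and 0.194, edgeR). The log2 difference of injured MRL from injured C57 was 3.63 ± 0.90 and did not pass the test (adjusted p = 0.0539, edgeR). It passed in 1 of 8 fits without 1 library, that without C57 injured replicate 3 (adjusted p = 0.0451, edgeR), and in DESeq2 (adjusted p = 2.77e-05). The difference of injured from uninjured MRL was 1.23 ± 0.95 (adjusted p = 0.432, edgeR). The CD3 sums of the same injured MRL libraries were 1, 2, 13 and 15, so that the library lowest for Trdc was also the lowest for CD3, while the libraries with 104 and 105 Trdc counts had CD3 sums of 2 and 15.

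Of 15 other T cell surface and transcription factor genes, 8 were tested in each strain. None passed in C57 as higher or lower in edgeR, while DESeq2 called 2 higher and 1 lower. In MRL 1 was higher and 2 were lower after injury, where 5.25% of all tested genes were higher and 2.15% lower, and 0.908% were higher in C57. The lower ones were Tox, a transcription factor of T cell development, with a log2 fold change of -2.13 ± 0.38 (adjusted p = 0.00733, edgeR), and Satb1, whose call was kept in 2 of 8 fits without 1 library. Satb1 averaged 2.92 CPM in uninjured and 0.296 CPM in injured MRL. It passed the filter mainly through its uninjured libraries, so that its call carries the limit given for Il7r and Il2rg. The higher one, Cd2, named with Satb1 after their values were seen, is an adhesion molecule of T and NK cells. It had 0, 6, 14 and 5 counts in uninjured and 114, 172, 137 and 108 counts in injured MRL, with a log2 fold change of 3.86 ± 0.86 (adjusted p = 0.0190, edgeR) that missed the threshold in 2 of 8 fits without 1 library. Cd2 also passed the filter through its injured libraries, so that this call carries the limit given for Il7r and Il2rg. In C57 Cd2 had 0, 13, 4 and 3 counts in uninjured and 95, 103, 49 and 25 counts in injured libraries, a difference that did not pass (3.60 ± 1.05, adjusted p = 0.162, edgeR) but was called by DESeq2 (3.68, adjusted p = 0.00157). Of 17 genes of T cell subsets and activation, 1 was tested in C57 and 2 in MRL and 0 passed, and the regulatory T cell factor Foxp3, also named after its values were seen, had 1 count in all libraries together.

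Il7r and Il2rg act with partners, and 19 genes were examined. They belong to the common gamma chain system or to the other receptor that the IL-7 receptor chain forms. Of these, 12 were tested in C57 with 0 passing (1 in DESeq2), and 13 in MRL with 2 higher, beside 0.908% and 5.25% of all tested genes. One was Il4ra, the IL-4 receptor chain that pairs with the common gamma chain. It stood at 13.7 CPM in uninjured and 30.2 CPM in injured MRL on average, a log2 fold change of 1.14 ± 0.28 (adjusted p = 0.0269, edgeR) that missed the test in 5 of 8 fits without 1 library. In C57 the change of Il4ra was of like size, from 26.5 to 60.2 CPM, with a log2 fold change of 1.13 ± 0.35 that did not pass (adjusted p = 0.184, edgeR). It passed in C57 with both libraries that stand apart left out (1.51, adjusted p = 0.0272), and the interaction was -0.05 ± 0.46 (adjusted p = 0.984, edgeR). The kinase Jak1 and the transcription factors Stat6 and Stat5b, which act downstream, had log2 fold changes of -0.64, -0.14 and -0.71 in MRL and did not pass both criteria.

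The other was Tslp, named here with Crlf2 after their values were seen, which encodes a cytokine of epithelial and stromal cells. Its receptor is formed by the IL-7 receptor chain and Crlf2, without the common gamma chain. Tslp had 27, 79, 47 and 4 counts in uninjured and 1282, 2446, 474 and 1797 counts in injured MRL. In C57 it had 47, 27, 3 and 4 counts without injury and 125, 74, 81 and 78 counts after injury. The injured MRL libraries thus stood above all other libraries. The rise in MRL was 4.75 ± 0.74 on the log2 scale (adjusted p = 0.00448, edgeR), and injured MRL exceeded injured C57 by 3.59 ± 0.48 (adjusted p = 0.00394), both in all 8 fits without 1 library. In C57 the log2 fold change was 2.05 ± 0.85 (adjusted p = 0.302). Crlf2 was at 17.0 ± 2.30 CPM in injured C57 and 10.5 ± 0.712 CPM in injured MRL (SD, n = 4), with a log2 difference of -0.72 ± 0.23 that did not pass (adjusted p = 0.112). The strain by injury interaction of Tslp did not pass either (2.66 ± 1.09, adjusted p = 0.368).

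**Figure D4:**
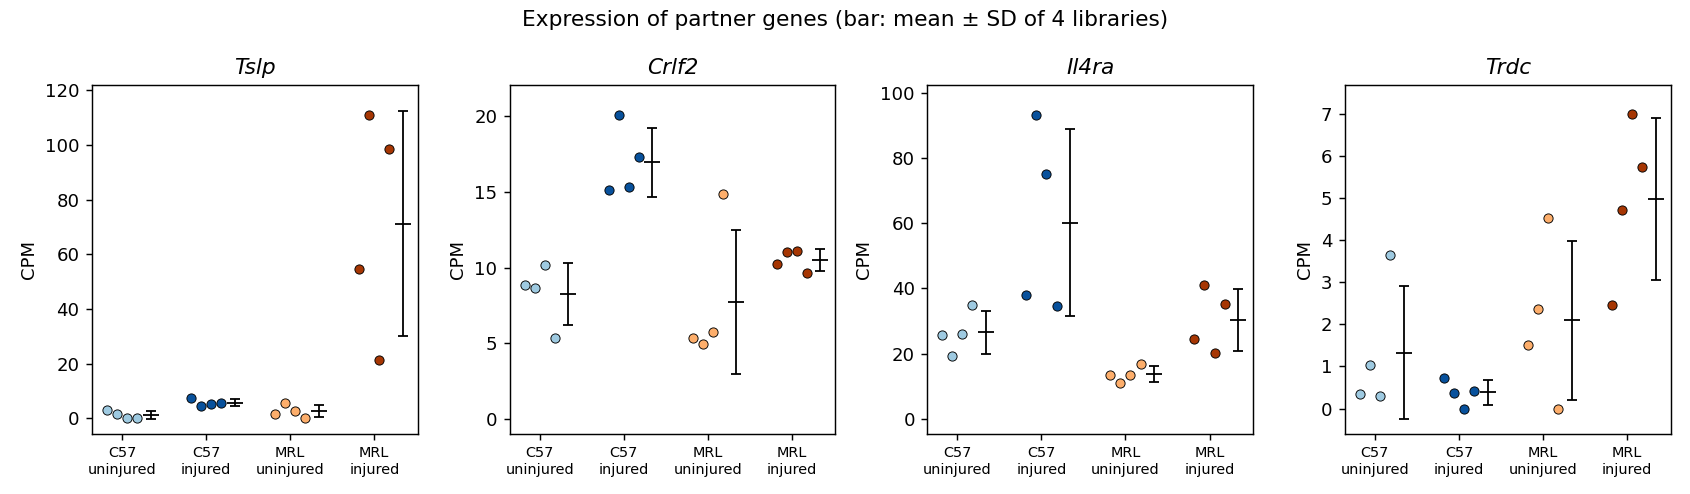
Expression in CPM (vertical axes, each panel with its own scale) of Tslp, Crlf2, Il4ra and Trdc in the 4 groups, with 1 point per library and bars for the mean ± SD of 4 libraries. The 4 injured MRL libraries stand above all others for Tslp, at a mean of 71.2 CPM, and for Trdc the injured MRL libraries stand above the injured C57 libraries.

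The ligands and relatives of Cd28 were given by 9 genes. Of these, 4 were tested in C57 and 5 in MRL, with 1 higher in each, beside 0.908% and 5.25% of all tested genes. Cd86, a CD28 ligand of antigen-presenting cells, was higher after injury in both strains, by 1.74 ± 0.23 on the log2 scale in C57 (adjusted p = 0.0152, edgeR) and by 1.54 ± 0.40 in MRL (adjusted p = 0.0330), although each call was kept in only 2 of 8 fits without 1 library. Cd80, the other ligand, named after its values were seen, was 7.64-fold higher on the means in C57 and 5.05-fold in MRL. It was not called in either strain in edgeR. Icosl and Cd274 did not pass in either strain. Btla, an inhibitory receptor of lymphocytes, had 176, 222, 155 and 91 counts in injured MRL and 12, 9, 0 and 16 in injured C57, a log2 difference of 3.55 with an adjusted p-value of 0.0510 in edgeR and of 9.18e-06 in DESeq2. In uninjured tendon it had 200, 90, 227 and 0 counts in MRL and 0, 2, 3 and 166 in C57, so that its mean in MRL was 8.27 CPM without and 7.37 CPM with injury. The single 0 in MRL and the 166 in C57 were both in libraries labelled uninjured replicate 4, and the log2 difference of the uninjured strains was 1.51 ± 1.76 with them (adjusted p = 0.846, edgeR) and 6.46 without them (adjusted p = 0.00120).

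Markers of other leukocytes moved with Ptprc and Il2rg, and their part in these results was not tested. Of 14 pan-leukocyte genes, 5 were higher after injury in C57 and 9 in MRL, 0 were lower, and the median log2 fold changes were 1.95 and 2.09, beside the 0.908% and 5.25% of all tested genes that were higher. Without 1 library the number higher was between 0 and 11 in C57, with 11 without C57 uninjured replicate 4, and between 7 and 10 in MRL. DESeq2 called 11 in each strain, and 11 were higher in C57 with both libraries that stand apart left out. Their summed level ranged from 154 to 361 CPM in uninjured and from 891 to 1425 CPM in injured C57, and from 120 to 244 CPM in uninjured and from 670 to 1112 CPM in injured MRL. Of 14 macrophage and monocyte markers, 13 were tested, 6 were higher in C57 and 8 in MRL, with medians of 1.96 and 1.36. Without 1 library the number higher was between 1 and 9 in C57 and between 5 and 8 in MRL, and it was 10 in C57 with both libraries that stand apart left out. Their summed level was 770 to 1593 CPM in uninjured and 4553 to 8263 CPM in injured C57, and 924 to 1529 CPM in uninjured and 3626 to 6723 CPM in injured MRL. Lyz2, the lysozyme of myeloid cells, was the most abundant, with log2 fold changes of 2.61 ± 0.30 in C57 (adjusted p = 0.0121, edgeR) and 2.38 ± 0.27 in MRL (adjusted p = 0.00120), a call kept in 4 of 8 fits without 1 library in C57 and in 8 of 8 in MRL. Unlike the T cell markers, none of these markers was at 0 in all libraries of a group.

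Of 11 natural killer and innate lymphoid markers, 1 was tested within each strain. This was Il1rl1, the IL-33 receptor of innate lymphoid cells, regulatory T cells and mast cells, which rose by 7.58 ± 0.73 on the log2 scale in MRL (adjusted p = 0.000876, edgeR) and had 3.82 ± 1.12 in C57 (adjusted p = 0.164). The C57 counts were 15, 8, 2 and 79 without injury and 154, 630, 754 and 68 after injury, with the 79 in the library rich in epidermal genes. Without that library, C57 uninjured replicate 4, the C57 log2 fold change was 5.42 and passed the test (adjusted p = 0.0220, edgeR). It also passed with both C57 libraries that stand apart left out (5.74, adjusted p = 0.0101, edgeR) and in DESeq2 on all 8 libraries (adjusted p = 0.00254). In uninjured MRL Il1rl1 averaged 0.575 CPM, with at most 17 counts, and it passed the filter through its injured libraries in both strains. Its edgeR calls therefore carry the limit given for Il7r and Il2rg. The interaction of Il1rl1 did not pass (3.70 ± 1.41, adjusted p = 0.351, edgeR). The summed level of this list was 0.713 to 1.22 CPM in uninjured and 36.1 to 182 CPM in injured MRL, most of it Il1rl1, and 5 of the 11 markers were at 0 in every injured MRL library. Of 8 dendritic cell markers 4 were tested, and 2, Itgax and Cd209a, were higher in injured MRL, while in C57 0 passed in edgeR and 3 in DESeq2, beside 5.25% of all tested genes higher in MRL and 0.908% in C57 in edgeR. Cd209a was 16.2-fold higher after injury in MRL, a call kept in 1 of 8 fits without 1 library, and 12.7-fold higher on the means in C57 (adjusted p = 0.222, edgeR). In uninjured MRL Cd209a averaged 0.584 CPM, with at most 26 counts. It passed the filter in MRL through its injured libraries, so that its call there carries the limit given for Il7r and Il2rg. Itgax was 4.71-fold higher on the means in C57 (adjusted p = 0.390, edgeR) and at least 41.2-fold higher in MRL, where each uninjured library had at most 1 count, so that it passed the filter through its injured libraries and had to differ. The interaction passed for neither in edgeR (adjusted p = 0.333 for Itgax and 0.965 for Cd209a), and DESeq2 called that of Itgax (adjusted p = 0.0239). In both strains 2 of 10 neutrophil markers and 1 of 9 B cell and plasma cell markers were tested, and of 8 mast cell markers 7 were tested in C57 and 4 in MRL. Among those tested, 0 passed in either strain in edgeR. DESeq2 called 1 B cell and plasma cell and 4 mast cell markers higher in C57, and 2 neutrophil and 1 mast cell markers higher in MRL.

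For the members with at least 10 counts on average, the genes of most similar profile over the 16 libraries were found by the root-mean-square (RMS) difference of mean-centred log2 CPM. For Ptprc these were Dpep2, Arhgdib and Mir142hg, at 0.320, 0.322 and 0.335 log2 units, where Ptprc itself varied with an SD of 1.19. For Il2rg they were Bid, Clec4n and Milr1, at 0.706 to 0.889 with an SD of 2.47. For Il7r they were Rad54b, Cd52 and Nusap1, at 0.945 to 1.01 with an SD of 2.54. For Cd28 they were Dtwd2, Amot and Gm15503, at 1.06 to 1.13 with an SD of 1.85. The libraries share their group and depth, and these distances are a description.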

How the data were processed

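RNA-seq of 16 mouse flexor tendon libraries was re-analysed from the deposited counts of 49568 gene symbols, whole numbers that the authors had made from single-end reads trimmed with Trimmomatic 0.36 and mapped with STAR 2.5.2b to GRCm38.p5. The submitters' processing notes also list Subread 1.5.0p3, featureCounts and DESeq2 1.14.1, while the annotation and the strand setting are not given in the sources used here, so that counts of overlapping and antisense genes are uncertain. No other normalization or filter had been applied.

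The 10 genes and the marker lists were chosen with earlier results of these data known. Groups came from the labels, and the methods give 4 animals per group. Genes were kept by edgeR's filter on groups, scaled by TMM and tested with the robust quasi-likelihood test (edgeR 4.0.16, R 4.3.3), in C57 and in MRL for injured against uninjured tendon, in injured and in uninjured tendon for MRL against C57, and over all 16 libraries for the interaction. Genes were called at an adjusted p-value (Benjamini-Hochberg) below 0.05 and, except for the interaction, with an absolute log2 fold change over 1. The SE is the fold change over the root of its F value. CPM used TMM-adjusted library sizes, log2 CPM a prior count of 2, and lengths the exon union in GENCODE M21. A count of 3 per library was the floor, and a fold against a group at 0 was computed against it. The tests were first tested on simulated data. No 2 libraries of a group agreed within sampling noise (smallest chi-square per gene 22.6).

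All members were to be named, of every other list at most the 4 genes with the highest mean CPM, and for each member with a mean of 10 counts or more the 3 genes of most similar profile. Other genes named are marked as chosen after their values were seen. Alternatives were DESeq2 1.42.0, DESeq2 size factors, total counts, no filter on low counts, each library left out, the replicate number as a block, and libraries that stand apart left out. The leaving out of both C57 libraries that stand apart was added after the data were seen. Depth was 12552424 to 23741648 counts per library, where 3 counts are 0.128 to 0.237 CPM. Figures were drawn with matplotlib 3.10.9.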

Additional observations from a re-analysis of the deposited data

Results flagged for a closer look

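A library was flagged when its gap to the nearest of the other 3 libraries of its group, divided by the range of the group, exceeded Dixon's critical value for 4 samples. This flagged 7 of the 25 sets of a gene and a group that were examined. Chance flags about 1 in 20 groups of continuous values, but a library with any counts beside 3 at 0, as for Cd3d, Cd8a and both cases of Lck, is flagged by construction, so the number of flags is not set against that rate. Cd3d stood at 0.783 CPM (11 counts) in C57 injured replicate 4 and at 0 in the other 3. Cd3e stood at 4.78 CPM (78 counts) in C57 injured replicate 1, with at most 0.741 CPM in the others. Cd4 stood at 1.31 CPM (22 counts) in MRL uninjured replicate 3, with at most 0.0656 CPM in the others. Cd8a stood at 0.270 CPM (6 counts) in MRL injured replicate 3, with 0 in the others. Lck stood at 0.325 CPM (5 counts) in C57 uninjured replicate 4 and at 0.711 CPM (9 counts) in MRL uninjured replicate 4, with 0 in the others of each group. These 6 rest on between 5 and 78 counts. Il7r stood at 15.0 CPM in MRL injured replicate 4 and between 3.87 and 5.61 CPM in the other 3, and its MRL call was kept without that library, at a log2 fold change of 9.49.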

How the results depend on the processing

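DESeq2 instead of edgeR called 907 genes in C57 injury, 1818 in MRL injury, 1488 between injured strains, 104 between uninjured strains and 198 for the interaction, and members called were 2 in C57 (Il2rg and Ptprc), 2 between injured strains (Cd3e and Il7r) and 1 for the interaction (Il7r). Without a filter on low counts 1 gene was called between uninjured strains. Leaving out both libraries labelled uninjured replicate 4 raised that count to 497, with 0 members among them. Leaving out both C57 libraries that stand apart, chosen after seeing the data, gave 867 genes and 2 members, Il2rg and Ptprc, in C57 injury. Leaving out 1 library at a time gave 10 to 750 genes and 0 to 2 members in C57 injury, with the highest of both without C57 uninjured replicate 4, 689 to 1260 genes in MRL injury, 231 to 481 genes between injured strains and 0 to 3 genes between uninjured strains. Ptprc between injured strains turned from -0.17 to 0.025 without C57 injured replicate 3, 0.052 without MRL injured replicate 2 and 0.021 without MRL injured replicate 3, and ranged from -0.45 to 0.052 over all 8 such fits. The cause of these shifts was not tested. With the replicate block the uninjured strains differed in 0 genes and 0 members, as without it. The shared numbers name animals of different strains and do not pair them. The correlations of same-numbered libraries lay between -0.238 and -0.0294, and those of other-numbered libraries between -0.144 and 0.192. Whether same-numbered libraries were handled together was not tested. Members called in MRL injury were 3 under every alternative run, and the levels of all 10 members moved by less than their SD under total counts and DESeq2 size factors. For Cd3d, Cd3e, Cd3g, Cd4, Cd8a and Lck the depth limits what can be seen to over 3 counts per library.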
